A study of Mus musculus with 12 samples.

Results

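The genes described here are 9 Toll-like receptor genes (Tlr1, Tlr2, Tlr3, Tlr4, Tlr6, Tlr7, Tlr8, Tlr9 and Tlr13) and Myd88, the adaptor gene that most of these receptors signal through. They were taken by name, 10 genes of the 35275 listed in the count tables, and all 10 passed the filter on low counts. RNA was sequenced from cultured mouse bone marrow-derived macrophages (BMDMs) in 12 libraries, 4 from each of 3 groups. The cells were wildtype, and every culture, controls included, received the cytokines M-CSF, IL-4 and IL-10. One group received only the solvent DMSO, the next olaparib, an inhibitor of PARP enzymes, and the last MNA (methyl-nicotinamide, a methylated derivative of nicotinamide), each over 6 days. The strain, the doses and the sex of the donors are not part of the labels, and the study's figure legends describe 4 donor mice. The labels do not tie a library to a donor, so p-values measure the spread between these libraries, which may in part be technical. The design asks how each treatment changed expression relative to DMSO.

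Toll-like receptors are transmembrane proteins that bind molecules typical of microbes or of damaged cells, and macrophages carry many of them. Some sit in the outer cell membrane and bind lipids and lipoproteins, and others sit in endosomes and bind nucleic acids. On binding they recruit adaptors, MyD88 for nearly all and TRIF for TLR3 and for TLR4 after uptake, and the signal ends in NF-kB and in interferon regulatory factors. IL-4 and IL-10 are known to push macrophages away from an inflammatory state, and the labels name no Toll-like receptor ligand among the additions.

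The 12 libraries held 21146291 to 31446849 counts each, of which 8497 to 17796 fell on the 10 genes. The mitochondrial share of counts was 1.04% to 1.35% with DMSO, 1.59% to 1.82% with olaparib, 1.61% to 2.25% in MNA replicates 1, 3 and 4 and 1.14% in MNA replicate 2, and its part in the differences between groups was not tested. Macrophage markers were well represented, with a summed level over 8 markers of 4472 to 5730 CPM (counts scaled to library size by the TMM method) with DMSO and 8919 to 10700 with olaparib. It was 5655 to 7579 in MNA replicates 1, 3 and 4 and 4106 in MNA replicate 2. The library of MNA replicate 2 stood apart from its group. On the first principal component, which held 49.8% of the variance, it lay at -36.0, among the DMSO libraries (-43.7 to -33.6) and far from the other MNA libraries (59.9 to 63.4). For 6 of the 10 genes its level lay within the DMSO range, for 1 above and for 3 below. Whether this culture was treated or labelled like the others cannot be told from the labels, so a value over all 4 MNA libraries may mix treated cells with others. The library is therefore shown apart. For the 10 genes, the main counts that involve MNA and many of the single fold changes are given with and without it. The choice to set it apart rests on expression in these same data, so p-values without it are not independent of that choice. Xist was counted in replicate 4 of each group (13151 to 22195 counts, 7 at most elsewhere), while the Y-linked gene Ddx3y was counted in every library of replicates 1 to 3 and at 0 in replicate 4. This bears on Tlr7, Tlr8 and Tlr13, which lie on the X chromosome, and the groups hold 1 such replicate each.

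With olaparib, 5 of the 10 genes rose against DMSO (Tlr13, Tlr8, Tlr2, Tlr9 and Tlr3) and none fell, at a Benjamini-Hochberg adjusted p under 0.05 in edgeR's quasi-likelihood test of all 12 libraries. At an unadjusted p under 0.05 it was 7 of the 10 genes in either direction (41.1% of all tested genes), and DESeq2 called 6 up and 0 down (32.3% of all genes with an adjusted p, 16.9% higher). The share of all tested genes called in this comparison was 27.0%, and 14.3% were called higher. With MNA, 4 rose (Tlr9, Tlr2, Tlr3 and Tlr4) and 1 fell (Tlr7), beside 28.6% of all tested genes, 16.3% higher and 12.3% lower. Between the treatments, Tlr7, Tlr13 and Tlr8 were higher with olaparib and Tlr4 was higher with MNA, beside 21.8% of all tested genes. With the replicate number as a block the counts were 4 up and 1 down with olaparib (28.8% of all tested genes called), 4 up and 1 down with MNA (32.4%), and 3 higher and 1 lower with olaparib than with MNA (22.2%, 10.5% lower). Without MNA replicate 2 they were 6 up and 1 down with olaparib (43.7% of all tested genes called, 21.2% lower), 7 up and 1 down with MNA (54.1%), and 3 higher and 4 lower with olaparib than with MNA (42.3%). The median log2 fold change of the 10 genes was 0.64 with olaparib and 0.32 with MNA, while that of all tested genes was 0.00 in both. Both treatments were compared with the same 4 DMSO libraries, so their results are not independent. A lower count in bulk RNA can come from fewer cells of a type or from less RNA per cell, and these cannot be told apart here.

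**Figure D1:**
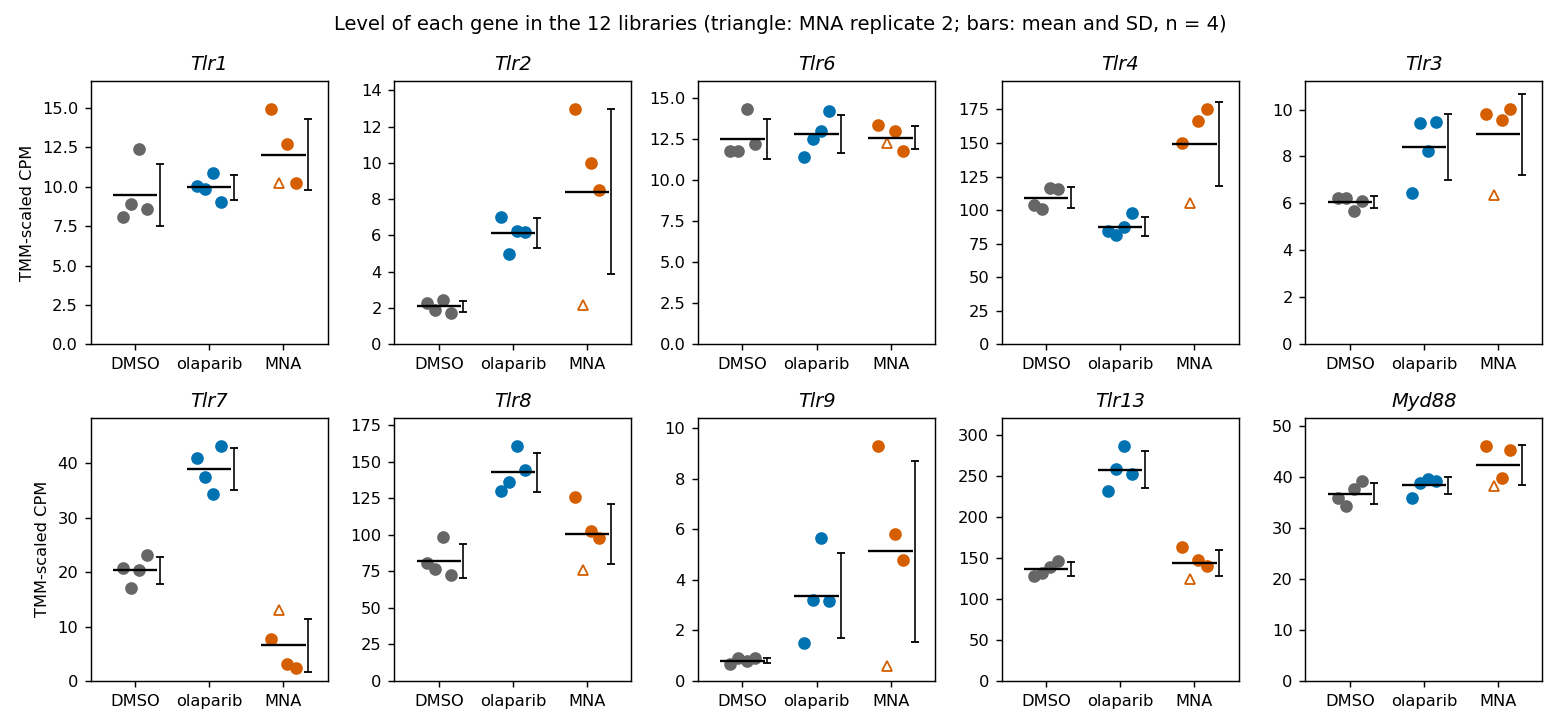
Level of each gene (TMM-scaled CPM, linear axis from 0) in the 12 libraries, 1 point per library, with the group mean and SD (n = 4) in black and MNA replicate 2 as an open triangle. Tlr7 lay at 34.3 to 43.2 CPM with olaparib, 17.1 to 23.2 with DMSO and 2.33 to 13.0 with MNA, while the libraries of Tlr6 overlapped in all 3 groups.

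Promoter sequence was available for 8 of the 10 genes in a RefSeq table (GRCm38.p6, 250 bases before each start). It is shown for the 4 genes with the largest called increases with olaparib, Tlr2 and Tlr9, which also rose with MNA, and Tlr13 and Tlr8, which were higher with olaparib than with MNA. Only bases before the outermost start of the gene in the GENCODE annotation are printed. The windows were searched on both strands for GAGGAA (PU.1), TGANTCA (AP-1), TTGCNNAA (C/EBP), TTCNNNGAA (STAT), the same with N once more in its centre (STAT6), GAAA and GAAA parted by NN (ISRE), and GGGA, N, TT, N and CC in a row (NF-kB), N being any base, and capitals mark every match.
Tlr2 (chr3:83841768-83841858, minus strand): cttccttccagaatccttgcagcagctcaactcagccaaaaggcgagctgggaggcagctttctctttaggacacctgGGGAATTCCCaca
Tlr9 (chr9:106222348-106222597, plus strand): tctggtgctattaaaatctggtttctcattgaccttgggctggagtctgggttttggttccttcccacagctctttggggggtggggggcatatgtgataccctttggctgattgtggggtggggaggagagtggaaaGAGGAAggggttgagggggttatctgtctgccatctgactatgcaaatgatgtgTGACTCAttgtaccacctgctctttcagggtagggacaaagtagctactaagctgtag
Tlr13 (chrX:106143025-106143203, plus strand): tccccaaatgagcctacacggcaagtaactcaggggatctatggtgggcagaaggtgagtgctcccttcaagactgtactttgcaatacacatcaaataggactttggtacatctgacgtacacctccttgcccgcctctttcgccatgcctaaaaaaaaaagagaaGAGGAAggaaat
Tlr8 (chrX:167264330-167264579, minus strand): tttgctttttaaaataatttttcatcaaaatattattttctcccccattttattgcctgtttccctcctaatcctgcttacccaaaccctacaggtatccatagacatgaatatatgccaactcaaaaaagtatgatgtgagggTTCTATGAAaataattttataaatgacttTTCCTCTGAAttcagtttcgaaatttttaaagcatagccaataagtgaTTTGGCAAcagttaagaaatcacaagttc

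The Tlr2 sequence held the NF-kB letters, beginning 13 bases before the gene, a match found in 0.980% of all 32851 windows of 250 bases. The Tlr9 sequence held the PU.1 letters (112 bases before) and the AP-1 letters (58 bases before), found in 23.3% and 6.75% of windows. The Tlr13 sequence held the PU.1 letters 12 bases before the gene. The Tlr8 sequence held a STAT match (106 bases before, 7.02% of windows), a STAT6 match that contains the PU.1 letters on the other strand (77 bases before, 5.85% of windows) and a C/EBP match (29 bases before, 9.56% of windows). Matches also lay in the 250-base windows of Tlr1, Tlr6 and Myd88, which were not called with olaparib. They included PU.1 for Tlr1, C/EBP and ISRE for Tlr6, and ISRE and STAT for Myd88. The window of Tlr3, which was called, held NF-kB and C/EBP. All of these matches describe the letters only.

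Among the receptors of the outer membrane, Tlr4 was the most abundant and was the one whose levels lay on opposite sides of DMSO in the 2 treatments. Tlr4, the lipopolysaccharide receptor (chromosome 4, 66827584 to 66930284, plus strand), had 103.6, 101.1, 116.1 and 115.7 CPM in DMSO replicates 1 to 4. With olaparib it had 84.1, 81.6, 87.5 and 97.4 CPM, and with MNA 149.9, 166 and 175 CPM in replicates 1, 3 and 4, and 104.9 CPM in replicate 2. Every olaparib library lay below every DMSO library, and 3 of 4 MNA libraries lay above them. With MNA it rose by 0.45 ± 0.13 (log2 fold change ± SE, adjusted p = 0.0289), and by 0.58 ± 0.08 without replicate 2 (adjusted p = 2.75e-05). With olaparib the log2 fold change was -0.32 ± 0.13, which did not pass the test (adjusted p = 0.0922), and did so without MNA replicate 2 (-0.32 ± 0.07, adjusted p = 0.0032) and with the replicate number as a block (adjusted p = 0.0348). The difference between the treatments was -0.77 ± 0.13 on the log2 scale, olaparib being the lower (adjusted p = 0.0021), and it stayed past the threshold whichever of the 12 libraries was left out. The MNA call did not stay, and was lost without any 1 of the 4 DMSO libraries or of MNA replicates 1, 3 and 4 (adjusted p up to 0.0922).

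Tlr2, which binds bacterial lipoproteins as a partner of Tlr1 or Tlr6 (chromosome 3, 83836272 to 83841767, minus strand), rose with both treatments from a low level. It had 2.30, 1.89, 2.41 and 1.75 CPM with DMSO and 6.99, 4.99, 6.27 and 6.20 CPM with olaparib, from 49 to 72 and 127 to 198 counts. With MNA it had 12.95, 10.00 and 8.49 CPM in replicates 1, 3 and 4, and 2.18 CPM in replicate 2. The olaparib libraries were at least 2.598 and at most 3.55 times their same-numbered DMSO libraries. The log2 fold change was 1.55 ± 0.40 with olaparib (adjusted p = 0.0146) and 2.01 ± 0.40 with MNA (adjusted p = 0.0142, and 2.33 ± 0.18 without replicate 2, adjusted p = 1.45e-07). Both calls held in each of the 12 fits with 1 library left out. Neither held in replicates 1 to 3 alone (adjusted p = 0.11 with olaparib and 0.15 with MNA). In the fit of the olaparib and DMSO libraries alone the olaparib value passed (adjusted p = 2.2e-05). In that of the MNA and DMSO libraries alone the MNA value did not (adjusted p = 0.0640). The treatments differed by -0.46 ± 0.37 (adjusted p = 0.42), and by -0.78 ± 0.16 without MNA replicate 2 (adjusted p = 0.0018), Tlr2 then being lower with olaparib.

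Its 2 partners differed less. Tlr6 (chromosome 5, 64952031 to 64960097, minus strand) had 11.8 to 14.3 CPM with DMSO, 11.4 to 14.2 with olaparib and 11.8 to 13.4 with MNA, and its log2 fold changes were 0.03 ± 0.10 with olaparib and 0.01 ± 0.10 with MNA. Tlr1 (chromosome 5, 64924679 to 64933563, minus strand) had 8.11 to 12.4 CPM with DMSO, 9.02 to 10.9 with olaparib and 10.2 to 14.9 with MNA, and its log2 fold changes were 0.07 ± 0.16 and 0.34 ± 0.16. Neither passed the test in any comparison of the 12 libraries, and Tlr1 did so in MNA against DMSO without MNA replicate 2 (0.40 ± 0.15, adjusted p = 0.0397). Tlr1 and Tlr6 are near-identical over part of their length, with 20.0% and 16.6% of their 31-base words found in another gene, mostly each other, so the split of counts between them is uncertain.

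Among the endosomal receptors, Tlr13 rose with olaparib, the call with the smallest p of the 10 genes. Tlr13, which binds bacterial ribosomal RNA in mice (chromosome X, 106143204 to 106160493, plus strand), had 128, 131, 139 and 147 CPM with DMSO and 232, 259, 287 and 253 CPM with olaparib. With MNA it had 164, 148 and 140.4 CPM in replicates 1, 3 and 4, and 125.1 CPM in replicate 2. All olaparib libraries lay above all others, and DMSO and MNA overlapped. The rise was 1.89-fold against DMSO (0.92 ± 0.09, adjusted p = 6.07e-05) and 1.79-fold against MNA (0.84 ± 0.09, adjusted p = 0.0001), and both held in each of the 12 fits with 1 library left out. MNA differed from DMSO by 0.08 ± 0.09 (adjusted p = 0.50). In the Xist-bearing replicate 4, olaparib was 1.72 times DMSO, against 1.82 to 2.06 times in replicates 1 to 3.

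Tlr8, a receptor of RNA fragments (chromosome X, 167242696 to 167264329, minus strand), showed the same order at a smaller size. It had 81.1, 76.6, 98.9 and 72.6 CPM with DMSO and 130.2, 136, 161.0 and 145 CPM with olaparib. With MNA it had 126, 103 and 97.9 CPM in replicates 1, 3 and 4, and 76.3 CPM in replicate 2. The olaparib libraries lay above all others, and the MNA libraries overlapped DMSO. With olaparib it rose by 0.80 ± 0.14 (adjusted p = 0.0025) against DMSO, a call that held in each of the 12 fits with 1 library left out. It was 0.51 ± 0.14 higher than with MNA (adjusted p = 0.0228), and this call was lost without olaparib replicate 3 or 4 or without MNA replicate 3 or 4 (adjusted p up to 0.0671). In replicates 1 to 3 alone, olaparib against DMSO passed (0.74 ± 0.18, adjusted p = 0.0435) and olaparib against MNA did not (adjusted p = 0.14). MNA against DMSO gave 0.29 ± 0.14 (adjusted p = 0.12), and 0.40 ± 0.11 without MNA replicate 2 (adjusted p = 0.0079).

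Tlr7, a receptor of single-stranded RNA whose gene is the neighbour of Tlr8 (chromosome X, 167304929 to 167330558, minus strand), fell with MNA. It had 20.7, 17.1, 20.4 and 23.2 CPM with DMSO and 40.9, 37.5, 34.3 and 43.2 CPM with olaparib. With MNA it had 7.73, 3.09 and 2.33 CPM in replicates 1, 3 and 4, and 13.0 CPM in replicate 2. The 3 groups did not overlap, MNA being the lowest and olaparib the highest, with or without MNA replicate 2. Its log2 fold change with MNA was -1.63 ± 0.40 (adjusted p = 0.0185), and -2.22 ± 0.28 without replicate 2 (adjusted p = 1.37e-05), and the call was lost without MNA replicate 3 (adjusted p = 0.0571). The fall did not pass in the fit of the MNA and DMSO libraries alone (adjusted p = 0.0680). Nor did it pass in replicates 1 to 3 alone (-1.28 ± 0.39, adjusted p = 0.15). With olaparib the log2 fold change was 0.94 ± 0.38 (adjusted p = 0.0813), not past the threshold, although each olaparib library was 1.68 to 2.19 times its same-numbered DMSO library. Without MNA replicate 2 the same fold change passed (0.94 ± 0.21, adjusted p = 0.0031), as it did in DESeq2 (adjusted p = 0.0440) and in the fit of the olaparib and DMSO libraries alone (adjusted p = 2.22e-05). Olaparib exceeded MNA by 2.57 ± 0.40 (5.94-fold, adjusted p = 0.0012), a call that held in each of the 12 fits with 1 library left out.

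Per exon length, Tlr8 was 3.56 to 5.52 times Tlr7 with DMSO and 3.62 to 5.35 times with olaparib, ranges that overlap. With MNA the ratio was 18.6, 37.9 and 47.8 in replicates 1, 3 and 4 and 6.68 in replicate 2, above every library of the other groups. The ratio of these neighbouring genes thus lay in 1 range with DMSO and olaparib and above it with MNA.

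Tlr9, a receptor of unmethylated CpG DNA (chromosome 9, 106222598 to 106226883, plus strand), was the least abundant of the 10 genes in DMSO and rose with both treatments. It had 0.656, 0.895, 0.771 and 0.889 CPM with DMSO, from 14 to 28 counts, and 1.52, 3.18, 5.64 and 3.17 CPM with olaparib, from 43 to 134 counts. With MNA it had 9.29, 5.83 and 4.79 CPM in replicates 1, 3 and 4, and 0.609 CPM, 17 counts, in replicate 2. Every olaparib library lay above DMSO, and MNA replicate 2 lay below it. The log2 fold change was 2.05 ± 0.63 with olaparib (adjusted p = 0.0308) and 2.66 ± 0.63 with MNA (adjusted p = 0.0173, and 3.02 ± 0.37 without replicate 2, adjusted p = 1.16e-05). The olaparib call was lost in 7 of the 12 fits with 1 library left out (without any DMSO library, or without olaparib replicate 2, 3 or 4) and the MNA call in 3 (without MNA replicate 1, 3 or 4), with adjusted p up to 0.0861 and 0.0542. In the fit of the olaparib and DMSO libraries alone the olaparib value passed (2.04 ± 0.35, adjusted p = 0.0007), and in replicates 1 to 3 alone it did not (2.13 ± 0.84, adjusted p = 0.14). Against MNA, olaparib gave a log2 fold change of -0.98 ± 0.33 without MNA replicate 2 (adjusted p = 0.0263), where all 12 libraries gave -0.60 ± 0.57 (adjusted p = 0.48).

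B cells and plasmacytoid dendritic cells are known for high Tlr9 and Tlr7, and markers of both were checked. Of 8 B cell markers, Pax5 averaged 0.0717 CPM with DMSO, 0.0738 with olaparib and 0.177 with MNA. The summed B cell level was 16.1 to 19.7 CPM with DMSO and 27.6 to 34.4 with olaparib. In the MNA replicates other than 2 it was 6.72 to 11.9, and in replicate 2 it was 15.5. Most of it came from Cd22. Of 6 plasmacytoid dendritic cell markers, Siglech and Klk1 were at 0 in every DMSO and olaparib library and in MNA replicate 2, while MNA replicates 1, 3 and 4 had 3, 3 and 6 counts of Siglech and 0, 13 and 2 counts of Klk1. The summed level of these 6 was 86.7 to 99.02 CPM with DMSO and 96.0 to 111.2 with olaparib, most of it from Tcf4, Bst2 and Cox6a2. In the MNA replicates other than 2 it was 63.0 to 78.9, below every DMSO library, and in replicate 2 it was 92.8. Markers of neutrophils (10 genes) summed to 7.87 to 19.8 CPM with DMSO, 10.6 to 12.7 with olaparib, 10.9 to 65.2 in the MNA replicates other than 2 and 8.70 in replicate 2, with Ly6g at 0 in every library other than MNA replicate 4, which had 13 counts. Those of mast cells, basophils and eosinophils (6 genes) summed to 0.888 CPM at most. Conventional dendritic cell markers (7 genes) summed to 33.4 to 38.1 CPM with DMSO and 43.1 to 50.02 with olaparib. In the MNA replicates other than 2 they summed to 49.4 to 49.98, and in replicate 2 to 39.4. Flt3 had 2 counts at most in every DMSO and olaparib library and 7 counts at most with MNA. Monocyte markers (6 genes) summed to 32237 to 52710 CPM with DMSO, 18799 to 29571 with olaparib, 31554 in MNA replicate 2 and 897 to 1424 in the other MNA libraries, nearly all from Chil3, which IL-4 is known to induce in macrophages, and Fn1, with Ly6c2 at 8 counts at most in any library. The part of these marker levels, and of the summed macrophage level given above, in the changes of the 10 genes was not tested.

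Tlr3, which binds double-stranded RNA and uses TRIF in place of MyD88 (chromosome 8, 45395665 to 45411080, minus strand), rose by less than the other called endosomal receptors. It had 6.23, 6.23, 5.66 and 6.09 CPM with DMSO, 6.46, 9.43, 8.25 and 9.48 CPM with olaparib and, in MNA replicates 1, 3 and 4, 9.83, 9.57 and 10.01 CPM, with 6.38 CPM in replicate 2. Both treatments lay above DMSO in every library, although olaparib replicate 1 and MNA replicate 2 did so by a narrow margin. The log2 fold change was 0.47 ± 0.16 with olaparib (adjusted p = 0.0462, and 0.0686 with the replicate number as a block) and 0.56 ± 0.16 with MNA (adjusted p = 0.0268, and 0.0004 without replicate 2). The olaparib call was lost in 10 of the 12 fits with 1 library left out and the MNA call in 6, and a transcript on the other strand, Gm45542, shares 381 exon bases with Tlr3. In the fit of the olaparib and DMSO libraries alone the olaparib value passed (0.47 ± 0.13, adjusted p = 0.0116). It did not pass in replicates 1 to 3 alone (adjusted p = 0.21) or without the low-count filter (adjusted p = 0.0696).

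Myd88 (chromosome 9, 119335934 to 119341411, minus strand) had 34.3 to 39.2 CPM with DMSO and 35.9 to 39.5 CPM with olaparib, ranges that overlap. With MNA it had 46.1, 39.7 and 45.3 CPM in replicates 1, 3 and 4, and 38.3 CPM in replicate 2. Olaparib gave a log2 fold change of 0.06 ± 0.07 (adjusted p = 0.56) and MNA 0.20 ± 0.07 (adjusted p = 0.0550), and MNA passed without replicate 2 (0.25 ± 0.07, adjusted p = 0.0077) and in DESeq2 (adjusted p = 0.0425). Olaparib against MNA gave -0.14 ± 0.07 (adjusted p = 0.19). Without MNA replicate 2, Myd88 was called lower with olaparib than with MNA (adjusted p = 0.0411). Acaa1a, on the other strand, shares 290 exon bases with Myd88. Its fold changes were smaller than those of the called receptors that use it, a difference that was not tested.

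**Figure D2:**
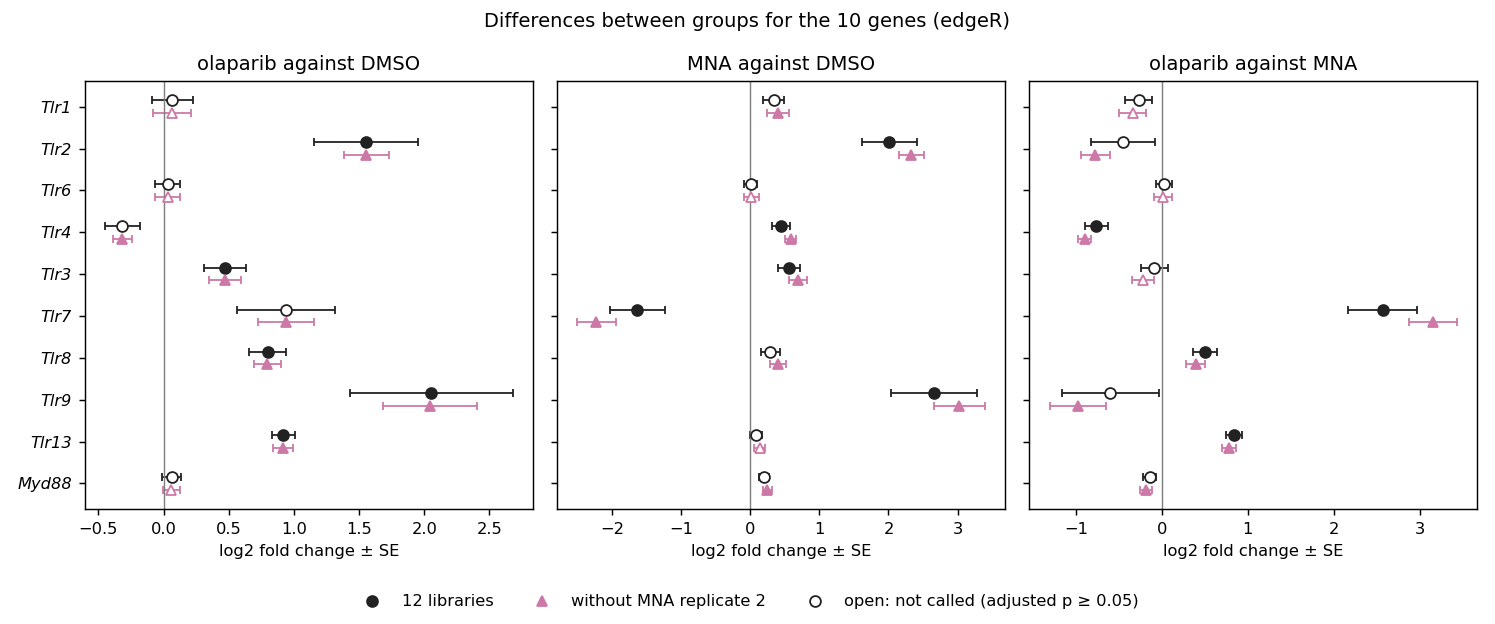
Log2 fold change with its SE for the 10 genes in the 3 comparisons, from all 12 libraries (black circles) and without MNA replicate 2 (triangles), with filled symbols for genes called at an adjusted p under 0.05. Leaving out MNA replicate 2 moved Tlr7 in MNA against DMSO from -1.63 to -2.22 and turned the olaparib values of Tlr7 and Tlr4 into calls with little change in their size.

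Counting libraries that did not overlap, olaparib was above DMSO for 6 of the 10 genes and below for 1 (Tlr4), beside 41.0% of all tested genes whose groups did not overlap. MNA was apart from DMSO for 2 genes (Tlr3 above, Tlr7 below, beside 12.4% of all tested genes), and without replicate 2 for 6 (beside 54.4%). Olaparib was apart from MNA for 4 genes (Tlr7, Tlr8 and Tlr13 above, Tlr4 below, beside 21.2%), and without replicate 2 for 7 (beside 46.3%). For MNA against DMSO without replicate 2, the share of the 10 genes was thus close to that of all genes.

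Levels can be compared between genes only per length, here as TMM-scaled CPM per kilobase of exon. With DMSO the order was Tlr13 (31.7 ± 1.98, SD, n = 4), Tlr8 (22.9 ± 3.23), Tlr4 (19.6 ± 1.42), Myd88 (14.3 ± 0.81), Tlr7 (4.98 ± 0.61), Tlr6 (3.36 ± 0.33), Tlr1 (2.84 ± 0.59), Tlr3 (1.16 ± 0.05), Tlr2 (0.692 ± 0.106) and Tlr9 (0.231 ± 0.032). In this order only Tlr8 and Tlr4, and Tlr6 and Tlr1, had ranges that overlapped with their neighbour. With olaparib Tlr13 (60.0 ± 5.26) and Tlr8 (39.9 ± 3.72) still led without overlap, and Tlr4 (15.8 ± 1.25) overlapped Myd88 (14.9 ± 0.66). With MNA, leaving out replicate 2, Tlr13 (35.0 ± 2.82, SD, n = 3), Tlr8 (30.4 ± 4.22) and Tlr4 (29.5 ± 2.31) overlapped one after the other, and Tlr7 (1.07 ± 0.72) had the lowest mean, in a range that overlapped that of Tlr3 (1.88 ± 0.04). With all 4 MNA libraries Tlr9 (1.47 ± 1.03, n = 4) had the lowest mean, overlapping Tlr7 (1.60 ± 1.21).

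Summed over the 9 receptors, this level was 82.2 to 95.5 with DMSO, 125.5 to 147.8 with olaparib, 104.3 to 119.1 in MNA replicates 1, 3 and 4, and 80.9 in replicate 2. Tlr13 and Tlr8 made up most of it in every group. The share of Tlr13 was 36.3% ± 1.98 with DMSO, 44.0% ± 1.47 with olaparib and 31.7% ± 0.39 with MNA without replicate 2. The share of Tlr4 was 22.4% ± 0.70, 11.6% ± 0.91 and 26.9% ± 3.86, and that of Tlr7 5.70% ± 0.63, 7.05% ± 1.02 and 0.947% ± 0.563. So the mix with olaparib held more Tlr13 and less Tlr4, and the mix with MNA held less Tlr7.

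**Figure D3:**
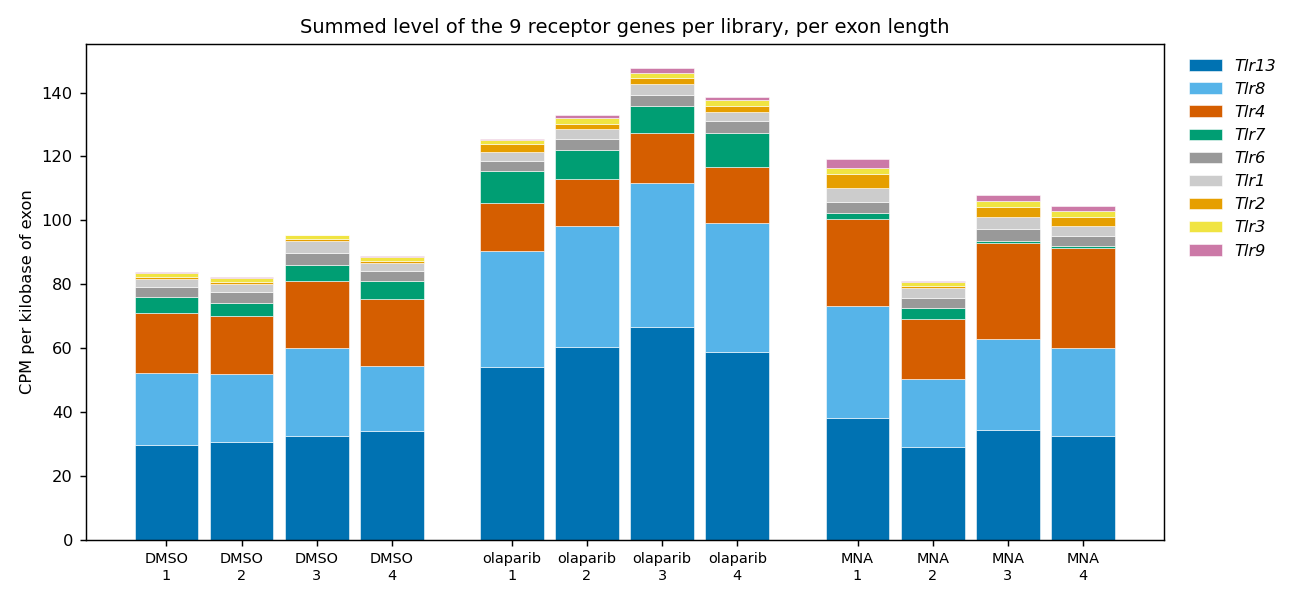
Level of the 9 receptor genes per kilobase of exon (stacked bars from 0), 1 bar per library. The olaparib bars reach 125.5 to 147.8, with Tlr13 and Tlr8 as the tallest parts, while MNA replicate 2, at 80.9, lies just below the lowest DMSO bar, at 82.2.

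The remaining mouse receptor genes were at or close to the limit of detection. Tlr5, the flagellin receptor, had 0 counts in every DMSO and MNA library and 2 counts at most with olaparib, and 3 counts is the floor used here for counting error. Tlr11 and Tlr12, which bind profilin of protozoa, stayed under 1 CPM on average in each group. Tlr12 rose with olaparib (0.250 ± 0.092 to 0.895 ± 0.143 CPM, SD, n = 4, adjusted p = 0.0407) and Tlr11 with MNA (0.0988 ± 0.0305 to 0.640 ± 0.467 CPM, adjusted p = 0.0366), both from at most 30 counts in a library. The Tlr12 call was lost without any 1 DMSO or olaparib library (adjusted p up to 0.0990), and the Tlr11 call without any 1 DMSO library, olaparib replicate 2 or MNA replicate 1, 3 or 4 (adjusted p up to 0.112).

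Of 74 further genes of the pathway, 64 were tested. With olaparib 12 rose and 7 fell, and with MNA 19 rose and 6 fell, with medians of 0.05 and 0.12 on the log2 scale. Without MNA replicate 2, 65 were tested, and the counts became 22 and 13 with olaparib and 29 and 15 with MNA. These shares are to be read beside the 27.0% and 28.6% of all tested genes called, and the 43.7% and 54.1% without MNA replicate 2.

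Of the 15 genes for co-receptors and trafficking of the receptors, 14 were tested. With MNA 5 rose and none fell, and with olaparib 2 rose and none fell, with list medians of 0.10 and 0.12 on the log2 scale. Without MNA replicate 2 the counts were 6 up and 3 down with MNA and 5 up and 2 down with olaparib. Unc93b1, the chaperone that carries the endosomal receptors out of the endoplasmic reticulum, had 383.1 ± 33.7 CPM with DMSO (SD, n = 4) and 926.3 ± 45.2 CPM in the MNA replicates other than 2 (n = 3), with 356.1 CPM in replicate 2. It rose by 1.03 ± 0.24 on the log2 scale with MNA (adjusted p = 0.0166, and 1.27 ± 0.08 without replicate 2). Slc15a3, an endolysosomal transporter of histidine and of peptides from bacterial cell walls, rose by 1.17 ± 0.24 (adjusted p = 0.0142, and 1.42 ± 0.06 without replicate 2), from 255.1 ± 4.07 to 683.6 ± 40.2 CPM on the same libraries. Both were lower with olaparib than with MNA, with a log2 fold change of -0.72 ± 0.24 for Unc93b1 (adjusted p = 0.0488, and 0.0557 with the replicate block) and -0.97 ± 0.24 for Slc15a3 (adjusted p = 0.0147). Cd14, the co-receptor that passes lipopolysaccharide on to TLR4, rose by 0.89 ± 0.23 with MNA (adjusted p = 0.0219, and 1.11 ± 0.13 without replicate 2) and stood at 42.6 ± 5.64 CPM with DMSO and 46.9 ± 8.76 CPM with olaparib (adjusted p = 0.68).

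Ly86, which encodes the partner of the receptor-like protein CD180, rose with both treatments, by 1.27 ± 0.31 with olaparib (adjusted p = 0.0118) and 1.22 ± 0.31 with MNA (adjusted p = 0.0202, and 1.48 ± 0.18 without replicate 2). Ctss, a lysosomal protease that takes part in cutting endosomal receptors into their active form, rose by 0.33 ± 0.11 with olaparib (adjusted p = 0.0471). It was 0.55 ± 0.11 higher with olaparib than with MNA (adjusted p = 0.0052). Against DMSO, the MNA call of Slc15a3 and the olaparib call of Ly86 held in each of the 12 fits with 1 library left out. The MNA calls of Unc93b1, Cd14 and Ly86 were each lost without MNA replicate 1, 3 or 4 (Cd14 also without DMSO replicate 2 or 3, and Ly86 without DMSO replicate 2, 3 or 4), and the olaparib call of Ctss without any 1 DMSO library, olaparib replicate 2, 3 or 4 or MNA replicate 4. Between the treatments, the call of Unc93b1 was lost in 11 of these fits, all but the 1 without MNA replicate 2.

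Of the 24 adaptors, kinases and transcription factors (23 tested), 4 rose and 4 fell with olaparib, and 5 rose and 2 fell with MNA (8 and 4, and 9 and 4, without MNA replicate 2). Irf7, the factor known for interferon induction after TLR7 and TLR9 signals, rose with olaparib from 6.28 ± 1.39 to 17.4 ± 4.30 CPM (1.47 ± 0.26, adjusted p = 0.0023), and was 1.79 ± 0.26 higher than with MNA (adjusted p = 0.0007). Irf5, a factor downstream of MyD88, rose with MNA by 0.73 ± 0.17 (adjusted p = 0.0163), as did Ikbke, a kinase of the interferon branch (0.83 ± 0.21, adjusted p = 0.0197), and Ticam1, the gene for TRIF (0.41 ± 0.13, adjusted p = 0.0381). Without MNA replicate 2 these were 0.90 ± 0.08, 1.03 ± 0.12 and 0.54 ± 0.08. Ticam2, the gene for the bridging adaptor between TLR4 and TRIF, fell by 0.81 on the log2 scale with MNA (adjusted p = 0.0198), and by 1.14 without replicate 2. The MNA calls of Irf5, Ikbke, Ticam1 and Ticam2 were all lost without MNA replicate 1, 3 or 4 (adjusted p up to 0.111). With olaparib, Irf5 rose too (0.53, adjusted p = 0.0329) and Ticam2 fell too (-0.60, adjusted p = 0.0472), calls lost in 7 and 9 of the 12 fits with 1 library left out. Traf3, an adaptor of the interferon branch, fell by 0.28 with olaparib (adjusted p = 0.0313). It was also called down with MNA (-0.25, adjusted p = 0.0467), a call lost in 10 of these fits. Tab2, a subunit of the TAK1 kinase complex, fell by 0.37 with olaparib (adjusted p = 0.0044). Map3k7, the gene for TAK1 itself, rose by 0.27 ± 0.06 with olaparib (adjusted p = 0.0085). The olaparib calls of Irf7, Tab2 and Map3k7 held in each of the 12 fits with 1 library left out, and that of Traf3 was lost without DMSO replicate 1, 2 or 4 or olaparib replicate 3 or 4. Between the treatments, Ikbkg, the regulatory subunit of the IkB kinase, was 0.50 ± 0.09 higher with olaparib (adjusted p = 0.0033) and Ripk1, a kinase recruited by TRIF, was lower (-0.21 ± 0.05, adjusted p = 0.0126).

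Of 9 inhibitors, all tested, 2 rose and 1 fell with olaparib, and 1 rose and 2 fell with MNA (3 and 3, and 4 and 2, without MNA replicate 2). Tollip, which restrains the IRAK kinases, fell with both, by 0.33 with olaparib (adjusted p = 0.0408) and by 0.40 with MNA (adjusted p = 0.0231). Tnfaip3, the gene for the ubiquitin-editing protein A20, fell with MNA from 53.2 ± 3.92 CPM to 24.9 ± 2.40 CPM in the replicates other than 2, and replicate 2 had 49.96 CPM (adjusted p = 0.0232). Cyld, a deubiquitinase, rose with MNA by 0.46 ± 0.13 (adjusted p = 0.0249), and Zc3h12a, an RNase that degrades cytokine transcripts, rose with olaparib by 0.48 ± 0.11 (adjusted p = 0.0083). Nfkbia, the gene for the IkB alpha inhibitor, was lower with olaparib than with MNA (-0.48 ± 0.13, adjusted p = 0.0188), a call lost without olaparib replicate 2, 3 or 4 or MNA replicate 3. The MNA calls of Tollip, Tnfaip3 and Cyld were each lost without MNA replicate 1, 3 or 4 and without DMSO replicate 2 or 3, those of Tollip and Cyld also without DMSO replicate 4 (adjusted p up to 0.0756). The olaparib call of Tollip was lost without DMSO replicate 2, 3 or 4 or any 1 olaparib library, and that of Zc3h12a held in each of the 12 fits. Without MNA replicate 2 the MNA values were -0.54 ± 0.07 for Tollip, -1.09 ± 0.10 for Tnfaip3 and 0.60 ± 0.07 for Cyld.

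Of 23 genes known to be induced after receptor signalling, 16 were tested, and 3 rose and 2 fell with olaparib, against 7 and 2 with MNA (5 and 4, and 8 and 6, without MNA replicate 2). Il6, Il12a and Il10 had 8 counts at most in any library and Ifnb1 had 0, and none of these was tested. Ccl3 and Ccl4, chemokines of macrophages, rose with MNA by 2.64 ± 0.50 (adjusted p = 0.0142) and 2.66 ± 0.61 (adjusted p = 0.0165), and by 3.01 ± 0.20 and 3.06 ± 0.29 without replicate 2. Ccl3 had 6.27 ± 2.47 CPM with DMSO, 49.6 ± 0.88 CPM in the MNA replicates other than 2 and 6.48 CPM in replicate 2. Ier3, an early response gene, rose with MNA by 0.94 ± 0.24 (adjusted p = 0.0204, and 1.15 ± 0.15 without replicate 2), and was lower with olaparib than with MNA (-1.48 ± 0.24, adjusted p = 0.0016). Tnf, which encodes the cytokine TNF, was lower with olaparib than with MNA (-1.04 ± 0.18, adjusted p = 0.0021, and -1.13 ± 0.17 without replicate 2). Against DMSO, Tnf rose with MNA (0.63, adjusted p = 0.0253, and 0.72 ± 0.16 without replicate 2). That rise was not called without MNA replicate 1, 3 or 4 or DMSO replicate 2, 3 or 4. The MNA call of Ccl3 and the calls of Ier3 and Tnf between the treatments held in each of the 12 fits with 1 library left out. Omitting MNA replicate 3 or 4 ended the MNA call of Ccl4, and the MNA call of Ier3 did not hold without MNA replicate 1, 3 or 4 or DMSO replicate 2, 3 or 4.

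Nos2, the gene for inducible nitric oxide synthase, rose with olaparib from 18.9 ± 4.41 to 59.1 ± 27.2 CPM (1.64 ± 0.32, adjusted p = 0.0039), and was 2.73 ± 0.33 higher than with MNA (adjusted p = 0.0002), where it had 8.91 ± 2.72 CPM. Acod1, the enzyme that makes itaconate, rose with both, by 1.36 ± 0.30 with olaparib (adjusted p = 0.0073) and 1.29 ± 0.30 with MNA (adjusted p = 0.0167, and 1.55 ± 0.18 without replicate 2), the latter call being lost without MNA replicate 3 or 4. Socs3, a feedback inhibitor of cytokine receptors, fell with olaparib from 15.9 ± 3.80 to 2.71 ± 0.87 CPM (adjusted p = 0.0019), and Cd40, a co-stimulatory receptor, from 8.96 ± 0.94 to 5.09 ± 1.17 CPM (adjusted p = 0.0107). Socs3 fell with MNA as well (log2 fold change -1.46, adjusted p = 0.0244, and -2.16 without replicate 2). Nos2 was also called down with MNA against DMSO (-1.08, adjusted p = 0.0309, and -1.32 without replicate 2). Both of these MNA calls were lost without MNA replicate 1, 3 or 4 or DMSO replicate 2 or 3, and that of Nos2 also without DMSO replicate 4. The olaparib calls of Nos2, Acod1, Socs3 and Cd40 held in each of the 12 fits with 1 library left out.

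**Figure D4:**
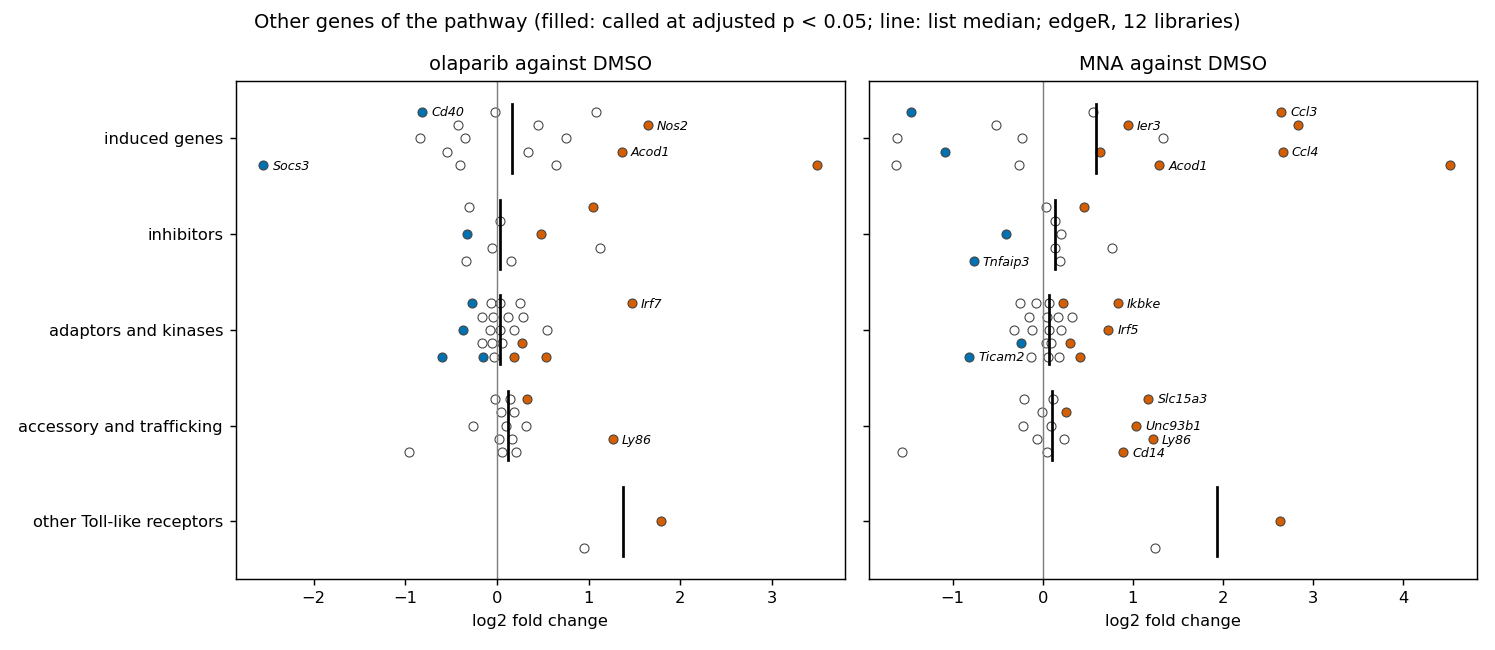
Log2 fold change of each tested gene of the 5 other pathway lists against DMSO, in all 12 libraries, with filled points for called genes and a black line at the list median. Co-receptor and trafficking genes include 5 called points with MNA and 2 with olaparib, and the induced genes spread on both sides of 0 in both panels.

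The genes whose pattern over the 12 libraries was most like a member were found by the root mean square difference of centred log2 CPM, for the 3 members with the smallest p in a test of any difference among groups. For Tlr13 they were Sort1 (0.11 log2 units), Klc4 (0.12) and Lamp2 (0.12), where the median over all tested genes was 0.51. For Tlr4 they were Nfix (0.10), Trove2 (0.11) and Erap1 (0.12), with a median of 0.44. For Tlr7 they were E230016K23Rik (0.31), Myh3 (0.34) and Mgam (0.36), with a median of 1.36.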

How the data were processed

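The authors sequenced stranded mRNA libraries as single-end reads and, per the labels, used STAR 2.5.2b on mouse genome GRCm38.p5. They deposited raw read counts per Ensembl gene, 1 table per library. Which strand column was counted is not given in the sources used here. The deposited counts were not normalized.

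The 12 libraries were fitted together, without a block, by the quasi-likelihood method of edgeR 4.0.16 under R 4.3.3 (TMM scaling, filterByExpr with a minimum count of 10 and total of 15, 12849 genes). The SE was taken from the F value, and adjusted p is Benjamini-Hochberg over all tested genes. CPM used TMM library sizes. On simulated counts the scripts were checked against known changes. Names and positions came from a GENCODE annotation of GRCm38. The members and gene lists were chosen with earlier results of these data known. Besides the members, the text names Tlr5, Tlr11, Tlr12 and, per list and comparison, up to 4 called genes of smallest p whose mean count reached 100.

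Deviations of same-numbered olaparib and DMSO libraries correlated across genes (r = 0.227, 0.172, 0.225 and 0.408), so the numbers pair these 2 groups. For MNA and DMSO r was 0.242, 0.114, -0.009 and 0.277, and for olaparib and MNA 0.070, 0.137, 0.131 and 0.392, so by r alone those numbers were not taken as pairs. The largest of these values in each comparison was that of replicate 4, the Xist-bearing replicate of every group. MNA deviations were taken from a mean that included MNA replicate 2, so whether the MNA numbers follow the donors was not settled. The main fit left out the pairing of olaparib and DMSO, and the replicate block applied the numbers to all 3 groups, MNA included. Alternatives were DESeq2 1.42.0, RLE normalization, no low-count filter, the replicate block, 2-group fits, each library left out, and replicates 1 to 3 only, which was added after the data were seen.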

Additional observations from a re-analysis of the deposited data

Results flagged for a closer look

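In the MNA group, replicate 2 lay far from the other 3 libraries for Tlr3, with 6.38 CPM against 9.57 to 10.01 CPM. Its gap to the nearest library was 0.879 of the group's range, above the limit of Dixon's test at this group size. The test was run on 30 groups (10 genes in 3 groups), and chance flags about 1 in 20 of them. The log2 fold change of Tlr3 with MNA was 0.56 with this library and 0.69 without it.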

How the results depend on the processing

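With 1 of the 12 libraries left out in turn, the number of the 10 genes called was 3 to 6 up and 0 to 1 down with olaparib, 1 to 7 up and 0 to 1 down with MNA, and 2 to 3 higher and 1 to 4 lower with olaparib than with MNA. For the other pathway genes it was 7 to 22 up and 3 to 13 down with olaparib, 4 to 29 and 0 to 15 with MNA, and 4 to 13 higher and 7 to 27 lower with olaparib than with MNA. The highest counts came without MNA replicate 2, where the common dispersion fell from 0.0333 to 0.0123. There the share of all tested genes called was 43.7% with olaparib, 54.1% with MNA and 42.3% between the treatments. In the main fit it was 27.0%, 28.6% and 21.8%. Apart from the block alone, and DESeq2 for olaparib against DMSO, the other settings here have no such share, so their counts are not read as particular to these genes. With the replicate block 1 of the 10 genes, Tlr4, was called down with olaparib. The block and the omission of MNA replicate 2 together gave 6 up and 1 down with olaparib and 7 up and 1 down with MNA. They gave 3 higher and 3 lower with olaparib than with MNA. For the other pathway genes the counts were 22 up and 14 down, 31 up and 15 down, and 14 higher and 27 lower. The block alone gave 20 up and 9 down with MNA among the other pathway genes, and changed no call of the 10 genes other than those of Tlr3 and Tlr4 with olaparib. The 2-group fits called 6 of the 10 genes up and 1 down with olaparib, and 2 higher and 1 lower with olaparib than with MNA. For MNA against DMSO they called none in either direction (0 and 0, by edgeR, with 6 at an unadjusted p under 0.05 and the lowest adjusted p at 0.0640). DESeq2 on all 12 libraries called 5 up and 1 down there. Among the other pathway genes the 2-group fits called 22 up and 13 down with olaparib, 0 and 0 with MNA (31 at an unadjusted p under 0.05), and 4 higher and 6 lower between the treatments. Replicates 1 to 3 alone called 2 up and 0 down with olaparib and 0 up and 0 down with MNA (6 at an unadjusted p under 0.05). Between the treatments they called 2 higher and 1 lower with olaparib. Among the other pathway genes they called 3 up and 2 down, 0 and 0 (25 at an unadjusted p under 0.05), and 3 higher and 2 lower. The cause of these differences between settings was not tested, beyond the fewer libraries in the fit.

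Of the log2 fold changes of single genes, those that changed sign were within 0.1 of 0 and were not called, and none of the called ones changed sign. Leaving out 1 library gave -0.0022 to 0.2212 for Tlr1 and -0.0236 to 0.1035 for Tlr6 with olaparib, -0.0208 to 0.0805 for Tlr6 with MNA, and -0.2226 to 0.0184 for Tlr3 and -0.0386 to 0.0748 for Tlr6 between the treatments. Replicates 1 to 3 alone gave -0.0338 for Tlr6 with olaparib and -0.0632 between the treatments. Over all alternatives, the fold changes of the 10 genes kept their direction and their side of the threshold in 482 values, newly passed it in 21, no longer passed it in 55 and changed sign in 12. At this depth Tlr9, Tlr2, Tlr11 and Tlr12 are the genes that counting limits most.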
